A study of Mus musculus with 298 samples.

Results

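The neural cell adhesion families are cell-surface proteins through which neurons recognise and hold on to each other, and here they were described across the neuron types of the mouse thoracic sympathetic ganglion. The members were all rows of the count table named Cdh, Pcdh, Cntn, Cntnap, Nrxn, Nlgn, Tenm, Lrrtm or Lrrn followed by a number, or by a letter and a number. That rule found 93 of the 16892 genes, in 12 name families, and 1 of the 93 had no count in any cell. The largest families by name were the clustered protocadherins Pcdhb (22 genes) and Pcdha (12), the classical and type II cadherins Cdh (17) and the non-clustered protocadherins Pcdh (11). A further 27 near names, among them the gamma protocadherins, did not match the rule and were kept apart. Of the members, 63 had enough counts to be tested, and 30 did not.

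Cadherins bind their own kind on the opposite cell through calcium-dependent extracellular repeats, and protocadherins are their most numerous relatives in the nervous system. Teneurins are large membrane proteins that bind teneurins and latrophilins on other cells, contactins are lipid-anchored immunoglobulin proteins that often pair with Caspr proteins (Cntnap), and presynaptic neurexins bind neuroligins and LRRTM proteins across the synapse. Sympathetic ganglion neurons receive synapses from preganglionic axons of the spinal cord and send their own axons to target organs, and adhesion proteins of these families are known from both axon growth and synapse formation.

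RNA was counted in 298 single cells caught on Fluidigm C1 microfluidic chips. All mice carried Wnt1-Cre and the R26R-Tomato reporter, a cross that marks cells of the neural crest lineage and that every group shared, so no group lacked the transgenes. The labels give each cell a sex, an age and an identity, name no animals, and do not say how the identities were assigned. Cells of 1 sex and age are called a collection, and there were 10: females at postnatal days 11, 16, 20, 30, 31, 33 and 34 (207 cells) and males at days 29, 30 and 38 (91 cells).

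The cholinergic groups were Ach1 (8 cells from 7 collections) and Ach2 (8 cells from 4), and 4 cells from 3 collections were labelled Glutamatergic. Of 193 noradrenergic cells, 10 were Noradrenergic1 (5 collections), 39 Noradrenergic2 (7), 18 Noradrenergic4 (5) and 23 Noradrenergic5 (6), and the rest, the largest group, were Noradrenergic3 (7). The other 85 cells were labelled Unclassified and entered no comparison. A cell held 7225 to 81589 counts in all (median 33099), and the median by named identity ran from 25756 (Glutamatergic) to 43245 (Noradrenergic2). Counts were summed per identity and collection into 44 libraries, of which 16 were a single cell. The collection labelled female at day 16 went against its label: Y-linked genes had counts in 5 of its 5 cells, and Xist in 0. It is kept under its label, sex enters no comparison, and results that end without it are named.

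The transmitter genes were read against the names of the identities. Summed levels are counts per 10000 counts of the cell. The noradrenergic list (Th, Dbh and 7 others) had a median of 231 in noradrenergic cells (60.1 to 368) and 21.9 in cholinergic ones. The cholinergic list (Chat, Slc18a3, Slc5a7, Vip) had a median of 59 in cholinergic cells (31.3 to 231) and 0 in noradrenergic ones. Vip, which encodes a peptide, made up 90.3% of the counts of that list in cholinergic cells. Chat, the enzyme that makes acetylcholine, was at 0 in 5 of 16 of them (2 Ach1 and 3 Ach2 cells) and reached 5 counts, while the vesicular transporter Slc18a3 was counted in 15 and the choline transporter Slc5a7 in all 16. Th, the first enzyme of noradrenaline synthesis, had 33 to 61 counts in 4 of the 8 Ach1 cells and at most 3 in the other cholinergic cells. Of those 4 cells, 2 had 0 Chat: a day 31 female cell with 61 Th counts and the day 33 female cell with 46. Among the 4 Glutamatergic cells the day 33 female cell had 130 Th counts. The Glutamatergic cells had counts of all 11 genes of the sensory neuron list, with a median of 191 against 9.49 in noradrenergic cells. The list of 18 satellite glia and Schwann cell genes differed between the groups too: its median was 39.5 in cholinergic cells (8.07 to 83.3), 42.4 in Glutamatergic cells (18.6 to 63.9) and 8.48 in noradrenergic cells (0.864 to 78.8). Of that list, 17 genes had counts in the cholinergic cells with Gfap at 0, and 16 in the Glutamatergic cells with Gfap and Erbb3 at 0. The 14 immediate-early and stress genes moved with the same groups, with a median summed level of 22.5 in cholinergic cells (4.04 to 87.1), 44.5 in Glutamatergic cells (11.9 to 57.2) and 10.8 in noradrenergic cells (1.32 to 54.3). Of 10 endothelial genes, 7 were at 0 in the cholinergic cells, Cdh5 among them.

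Where identities were read from these same transcriptomes, which the labels do not say, a p-value between them is no independent evidence. The p-values measure the spread between libraries that is left after the terms for identity and collection, which may be technical. In libraries of a single cell it includes the spread between cells. A level below is the counts per 10000 of an identity in a collection, given as mean ± SD over collections, and n is the number of collections. Counts are not scaled by transcript length, so levels are compared between identities within a gene, never between genes. Tests were edgeR quasi-likelihood tests over all 11555 genes with enough counts, adjusted by Benjamini and Hochberg, and called at an adjusted p under 0.05. A log2 fold change comes from that fit, weights each identity equally, and can differ from the ratio of pooled levels.

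Across the 8 identities 23 of the 63 tested members differed, beside 10.4% of all genes tested, and 34 had an unadjusted p under 0.05. All 4 teneurins were among them, with 5 of 6 contactins, 5 of 6 tested non-clustered protocadherins, 2 of 3 LRRTMs, 2 of 7 tested cadherins and 1 each of the neuroligins (of 3), neurexins (of 3), Lrrn genes (of 3) and Cdhr genes (of 1). In contrast 0 of 10 tested Pcdha genes, 1 of 15 Pcdhb genes and 0 of 2 Caspr genes were called. Of the 63 tested members, 16 had their highest mean level in Ach1, 12 in Noradrenergic4 and 4 each in Noradrenergic2 and Noradrenergic3. The same was not counted over all genes, and a few counts can raise the mean of an identity with single-cell libraries. Pcdhb14, for example, was highest in Ach1 (0.103) through 1 count in a cell of 13927, so this order is not read as a result. Members passed the count minimum partly through the identity where they are high, so these shares are no measure of all 93.

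**Figure D1:**
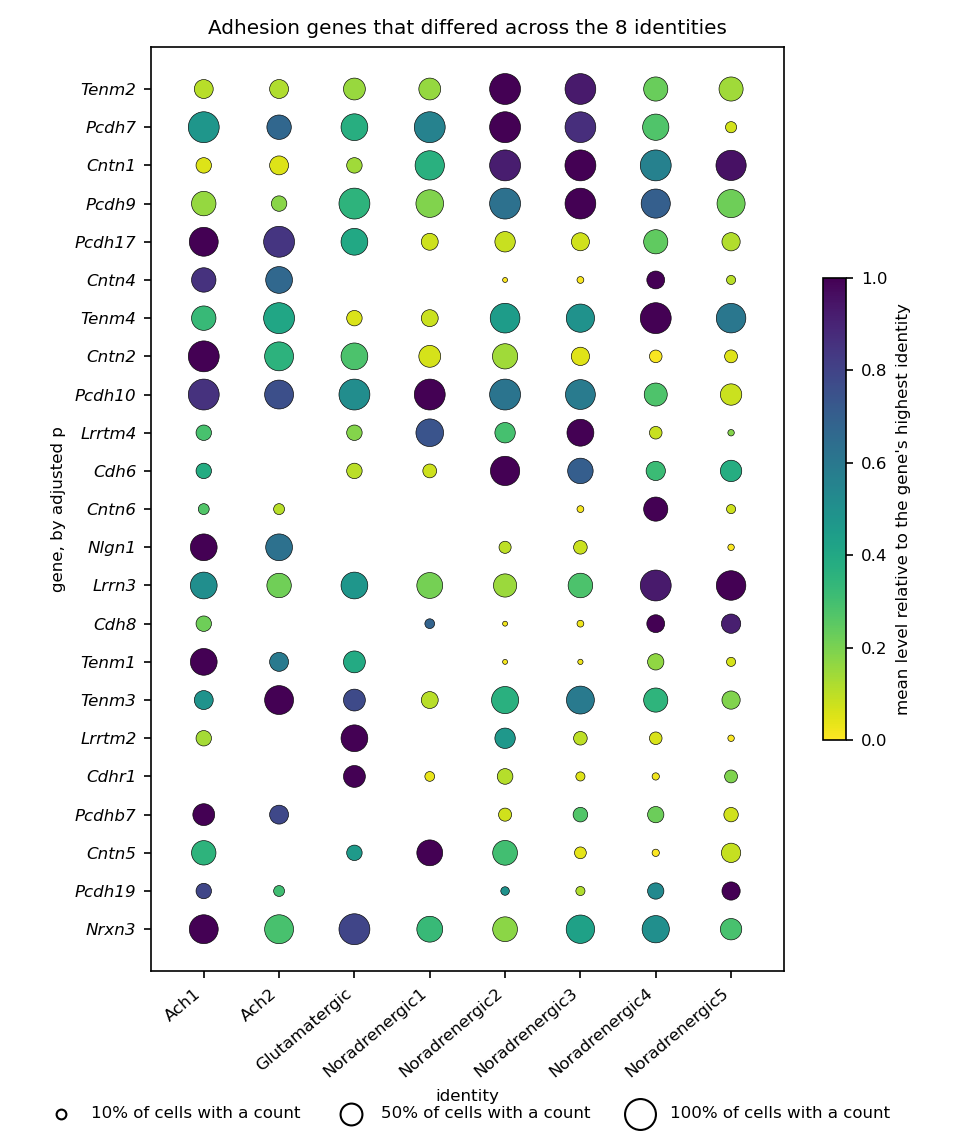
Each row is 1 of the 23 members called across identities, ordered by adjusted p, and each column an identity. Dot area is the percent of cells with a count and colour the mean level relative to the gene's highest identity: Tenm2 and Pcdh7 are darkest in Noradrenergic2 and Noradrenergic3, and Pcdh17, Cntn2, Nlgn1 and Tenm1 in the cholinergic columns.

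The smallest adjusted p-values over identities by edgeR were those of Tenm2 (2.36e-44), Pcdh7 (1.46e-33), Cntn1 (6.86e-29), Pcdh9 (7.74e-27), Pcdh17 (9.86e-23) and Cntn4 (2.23e-18). Those of Nrxn3 (0.0376), Pcdh19 (0.0367), Pcdhb7 (0.0223) and Cntn5 (0.0261) were the weakest. Of these 4 calls each ended under 2 or more of the alternative settings, as did those of Lrrtm2, Nlgn1 and Tenm3.

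The upstream sequence is shown for 4 members on which the comparisons below turn and whose RefSeq start coincides with the start of the GENCODE gene model: Cntn1, which was low in cholinergic cells, Pcdh9 and Pcdh10, which were low in Noradrenergic5, and Pcdh17, which was high in cholinergic cells. Each line is the 250 bases before the RefSeq start, build GRCm38.p6, 5′ to 3′ on the gene's strand: chr15:92050915-92051164 (plus) for Cntn1, chr14:93890680-93890929 (minus) for Pcdh9, chr3:45378148-45378397 (plus) for Pcdh10 and chr14:84443313-84443562 (plus) for Pcdh17. Capitals mark matches of TGACG on either strand (CGTCA on the printed one), letters found within the cAMP response element.
Cntn1: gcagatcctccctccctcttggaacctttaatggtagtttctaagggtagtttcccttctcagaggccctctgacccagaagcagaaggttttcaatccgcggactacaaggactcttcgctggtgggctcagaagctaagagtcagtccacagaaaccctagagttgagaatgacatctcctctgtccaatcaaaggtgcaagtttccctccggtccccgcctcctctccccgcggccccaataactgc
Pcdh9: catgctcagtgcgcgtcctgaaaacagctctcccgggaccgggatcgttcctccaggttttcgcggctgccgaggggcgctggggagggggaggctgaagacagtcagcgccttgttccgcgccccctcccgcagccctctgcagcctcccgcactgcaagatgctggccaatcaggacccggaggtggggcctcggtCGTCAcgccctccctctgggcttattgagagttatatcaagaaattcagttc
Pcdh10: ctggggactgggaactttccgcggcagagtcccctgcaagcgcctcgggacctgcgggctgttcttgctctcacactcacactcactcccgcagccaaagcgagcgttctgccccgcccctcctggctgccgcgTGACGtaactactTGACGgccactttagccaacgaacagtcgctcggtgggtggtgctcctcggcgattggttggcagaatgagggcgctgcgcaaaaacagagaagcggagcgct
Pcdh17: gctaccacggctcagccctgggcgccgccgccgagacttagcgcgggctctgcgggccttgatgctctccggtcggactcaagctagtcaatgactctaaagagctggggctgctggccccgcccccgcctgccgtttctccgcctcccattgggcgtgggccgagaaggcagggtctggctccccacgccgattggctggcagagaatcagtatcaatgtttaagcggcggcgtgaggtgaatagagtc

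TGACG matched 2 times upstream of Pcdh10, 1 time upstream of Pcdh9 and 0 times in the other windows, against a match in 17.8% of the 32851 windows of all genes. An E-box (CANNTG) and a homeodomain core (TAATTA) matched 0 times in each of the 4, against 66.2% and 4.8% of all windows. The 3 protocadherin windows held 18 to 22 CpG dinucleotides and 63.2% to 64.8% G and C, against medians of 6 and 52.4% over all windows, whereas that of Cntn1 held 7 and 53.6%. A window was given for 42 of the 93 members. A match is a string of letters in this window and says nothing of binding.

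Cholinergic cells differed from noradrenergic cells in 10 of the 63 tested members, beside 4.57% of all genes tested. Of these 7 were higher (2.17% of all genes) and 3 lower (2.4%). Pcdh17, Cntn2, Cntn4, Nlgn1, Tenm1, Lrrtm1 and Cdh11 were higher, and Cntn1, Pcdh9 and Tenm2 were lower. The higher genes include a neuroligin, a teneurin and 2 contactins, and a member of each of the last 2 families also moved the other way. A further 9 members had an unadjusted p under 0.05. The median log2 fold change of the members was -0.17, against -0.20 over all genes. With RLE in place of TMM scaling the median over all genes moved from -0.20 to -0.05, and it also moved by over 0.1 in the comparisons of Glutamatergic cells (-0.39 to 0.02), of Ach1 with Ach2 (-0.11 to 0.05), of Noradrenergic1 (-0.15 to -0.01) and of Noradrenergic3 (0.16 to 0.05).

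Pcdh17, a protocadherin of the delta-2 group that acts between axons and at synapses, showed the clearest excess. Its level in the cholinergic cells of a collection was 0.605 at the lowest, 2.09 at the median and 7.9 at the highest (n = 7). In all noradrenergic cells of a collection it was 0.136, 0.211 and 0.586 (n = 10). The 2 ranges did not overlap, and it was higher in 7 of 7 collections that held both. By identity the level was 2.73 ± 2.65 in Ach1 and 2.32 ± 1.12 in Ach2, against 0.198 ± 0.192 to 0.668 ± 0.445 in the noradrenergic ones. Single identities did overlap, as Pcdh17 fell to 0 in Ach1 and reached 1.31 in Noradrenergic4. The log2 fold change was 2.83 ± 0.28 (SE, edgeR adjusted p = 2.39e-21), and it was detected in 15 of the 16 cholinergic and 74 of the 193 noradrenergic cells. With each cell thinned to 15000 counts, shallower cells left out, these were 14 of 15 and 45 of 191.

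Cntn1, a contactin of axons and of the paranodal junction, ran the other way. Its level was 0 in 4 of 7 cholinergic collections and 0.688 at the highest, and 1.24 at the lowest, 2.59 at the median and 3.42 at the highest over the noradrenergic collections. With all noradrenergic cells of a collection pooled the groups did not overlap, and Cntn1 was higher in cholinergic cells in 0 of 7 collections. By identity there was overlap: Cntn1 ran from 0 to 1.55 in Noradrenergic1, against 0 to 0.688 in Ach1 and 0 to 0.487 in Ach2. Its log2 fold change was -3.47 ± 0.36 (edgeR adjusted p = 3.73e-19). It was detected in 5 of 16 cholinergic cells, while 191 of 193 noradrenergic cells held it, and in thinned cells these were 2 of 15 and 186 of 191. The Ach1 cell with 0 Chat and 61 Th counts held 7 of the 12 cholinergic Cntn1 counts and 17 of the 30 Tenm2 counts.

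Cntn2, the contactin that pairs with Caspr2 at juxtaparanodes, was higher in cholinergic cells in 6 of 7 collections. Levels were 0.303, 0.982 and 11.5 (lowest, median, highest) against 0, 0.169 and 1.07, and the highest value came from a single cell of 13927 counts. The log2 fold change was 2.86 ± 0.35 (edgeR adjusted p = 4.55e-14). Counts of Cntn2 and of Cntnap2, which encodes Caspr2, were found together in 14 of 16 cholinergic and 67 of 193 noradrenergic cells, while Cntnap2 itself was not called over identities (edgeR adjusted p = 0.364). Cntn4, another contactin, had cholinergic levels of 0, 0.209 and 2.87 and noradrenergic ones of 0, 0.0094 and 0.46, with overlap. Its log2 fold change was 3.10 ± 0.69 (edgeR adjusted p = 0.00031).

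Nlgn1, a postsynaptic partner of neurexins that is best known at excitatory synapses, was detected in 12 of 16 cholinergic but 27 of 193 noradrenergic cells, and in 7 of 15 and 16 of 191 after thinning. Its level was 0, 0.465 and 0.73 over cholinergic collections and 0, 0.0259 and 0.22 over noradrenergic ones, and the groups overlapped. The log2 fold change was 4.49 ± 0.66 (edgeR adjusted p = 1.39e-09), and Nlgn1 was higher in 6 of 7 collections. The counts were at 0 in Noradrenergic1, Noradrenergic4 and Glutamatergic cells. There 0 pooled counts allow a level of up to 0.103, 0.0454 and 0.248, if the spread between cells is ignored. Tenm1, the X-linked teneurin, was counted in 9 of 16 cholinergic and 11 of 193 noradrenergic cells. Its levels of 0, 0.325 and 0.718 against 0, 0.0047 and 0.0575 gave a log2 fold change of 3.21 ± 0.71 (edgeR adjusted p = 0.000308).

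**Figure D2:**
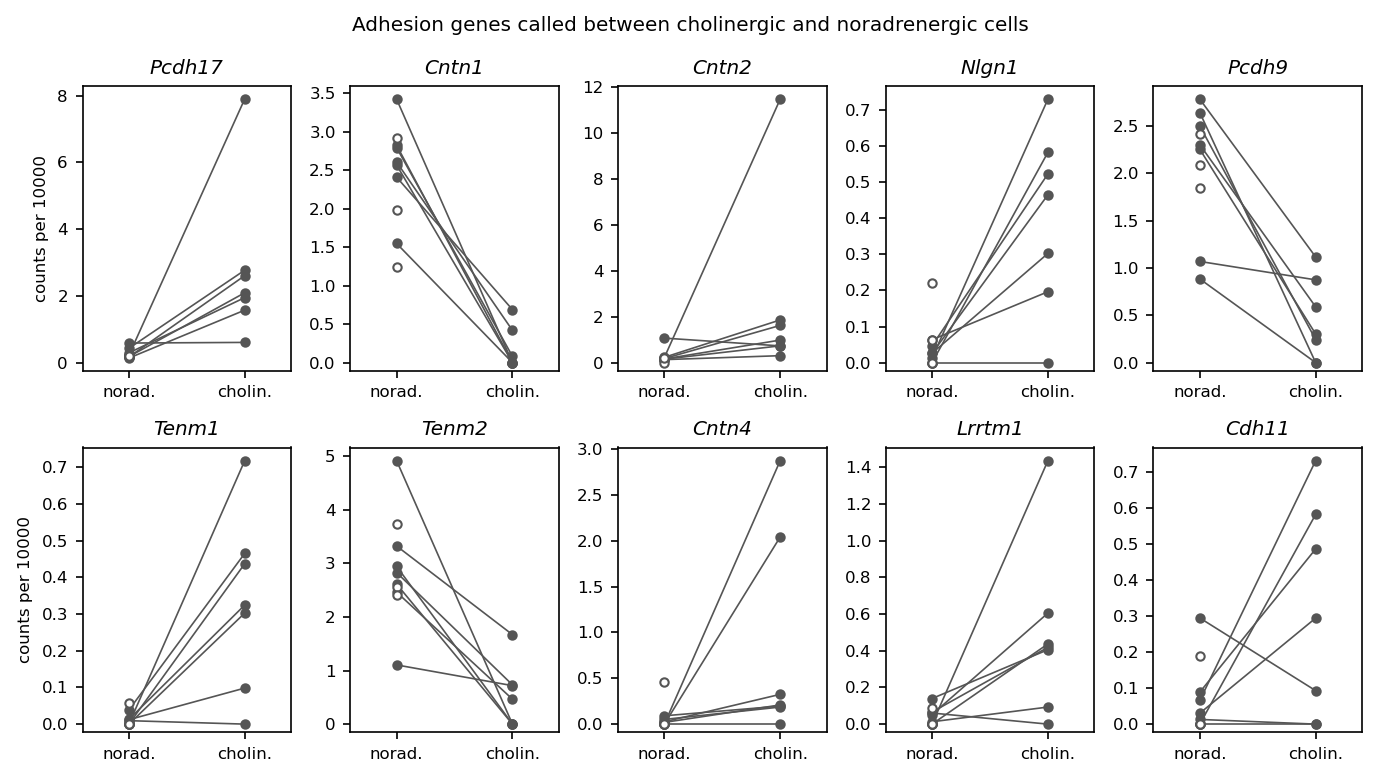
Counts per 10000 in all noradrenergic (norad.) and all cholinergic (cholin.) cells of a collection for the 10 members called between them. A line joins the same collection (7 of them), and open circles are the 3 collections without cholinergic cells: every line of Cntn1, Pcdh9 and Tenm2 falls, every line of Pcdh17 rises, and lines of Lrrtm1 and Cdh11 run both ways.

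Tenm2 and Pcdh9 were lower in cholinergic cells, and both were also uneven among the noradrenergic identities, as described below. Tenm2 levels were 0, 0.465 and 1.67 against 1.1, 2.72 and 4.92, with a log2 fold change of -1.45 ± 0.32 (edgeR adjusted p = 0.000308). Pcdh9 levels were 0, 0.303 and 1.12 against 0.884, 2.28 and 2.78, with a log2 fold change of -1.64 ± 0.33 (edgeR adjusted p = 5.06e-05). Both pairs of ranges overlapped, although each gene was lower in 7 of 7 collections. Lrrtm1, an LRR protein that binds neurexins, and Cdh11, a type II cadherin also made by mesenchymal cells and glia, were the weakest calls. Their log2 fold changes were 2.02 ± 0.58 (edgeR adjusted p = 0.0155) and 1.65 ± 0.52 (edgeR adjusted p = 0.0342).

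The summed glial and stress levels had higher medians in cholinergic cells, as given above. With the glial level as a covariate the call of Lrrtm1 ended (log2 fold change 1.71, edgeR adjusted p = 0.196) and so did that of Cdh11 (1.53, edgeR adjusted p = 0.143), and the other 8 calls stood. With the stress level as a covariate 9 calls stood and that of Cdh11 ended (1.35, edgeR adjusted p = 0.212). Without the 4 Ach1 cells of 10 or more Th counts 8 stood, and Lrrtm1 (1.78, edgeR adjusted p = 0.205) and Cdh11 (1.49, edgeR adjusted p = 0.174) ended. With cells of chip lot 1772099 alone, the calls of Cntn2, Nlgn1, Pcdh9, Tenm2, Cntn4 and Lrrtm1 ended, whereas those of Pcdh17, Cntn1 and Tenm1 stood in every alternative in which they could be tested, and without each collection. Cntn4 also lost its call with DESeq2, Cdh11 without the day 16 collection, and Tenm2 without the day 29 male collection.

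The 4 Glutamatergic cells differed from noradrenergic cells in 4 of 63 members, beside 2.63% of all genes tested: Lrrtm2, Cdhr1 and Cntn2 were higher (1.62% of all genes) and Cntn1 was lower (1.01%). The median log2 fold change of members was -0.63, against -0.39 over all genes, and 10 members had an unadjusted p under 0.05. The comparison shares its noradrenergic libraries with the cholinergic one, so the same values of Cntn1 and Cntn2 in noradrenergic cells enter both.

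Cntn1 was counted in 1 of 4 Glutamatergic cells, and that cell, of the day 33 female collection, also held the 130 Th counts. The levels were 0 (day 29 male), 0 (day 31 female) and 1.17 (day 33 female). All were below 1.24, the minimum over collections with noradrenergic cells pooled. Noradrenergic1 alone ran from 0 to 1.55 and Noradrenergic4 from 0.707 to 2.17. The log2 fold change was -2.31 ± 0.55 (edgeR adjusted p = 0.00259). The cell with the 130 Th counts also held all 21 Cntn5 counts of the identity. Lrrtm2, a neurexin-binding LRR protein of excitatory synapses, was counted in 3 of 4 Glutamatergic and 41 of 193 noradrenergic cells. It was higher in 3 of 3 collections, with a mean level of 0.507 ± 0.233 and a log2 fold change of 3.65 ± 0.96 (edgeR adjusted p = 0.00945). Cdhr1, a photoreceptor cadherin, had levels of 1.47, 0 and 0.196 in the same order of collections, so 6 of its 7 counts came from 1 day 29 male cell. Its log2 fold change was 3.46 ± 0.93 (edgeR adjusted p = 0.0128). Cntn2 levels were 1.71, 0 and 0.587, with a log2 fold change of 2.49 ± 0.69 (edgeR adjusted p = 0.0187).

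Each of the 4 calls ended without 1 or more of the collections: Cntn1, Cdhr1 and Cntn2 without day 29 males, Cntn1 also without day 31 females, Lrrtm2 without day 31 or day 33 females, and Cntn2 without day 33 females. Lrrtm2 and Cdhr1 also lost their calls with the glial level as covariate. With the stress level as covariate Cdhr1 (edgeR adjusted p = 0.562) and Cntn1 (edgeR adjusted p = 0.0536) ended, and without the cell of 130 Th counts Cntn2 (edgeR adjusted p = 0.0833) and Lrrtm2 (edgeR adjusted p = 0.162).

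Between Ach1 and Ach2 the edgeR test called 0 of 63 members, beside 0.138% of all genes tested, of which 0.0433% were higher in Ach1 and 0.0952% were lower. An unadjusted p under 0.05 was found for 5 members. DESeq2 and limma voom also called 0. The median log2 fold change was 0.08 for members and -0.11 for all genes. Cntn5 showed the widest gap in counts: 28 counts in 5 of 8 Ach1 cells and 0 in the Ach2 cells. With 3 counts over the whole of Ach2 as the floor, the pooled Ach1 level was 7.38-fold higher. That value ignores the spread between cells and collections and is no lower limit, and the difference was not called (edgeR adjusted p = 0.665). Its Ach1 levels were 3.83 (day 38 male), 2.72 (day 33 female), 0.534 and 0.295, and 0 in 3 collections, and single cells of the first pair gave 13 and 9 of the 28 counts. Those 2 cells held 57 and 46 Th counts. Tenm3 and Tenm4 had lower levels in Ach1, with log2 fold changes of -2.48 ± 0.80 (edgeR adjusted p = 0.374) and -1.85 ± 0.65 (edgeR adjusted p = 0.471). Pcdhb17 had 5 counts against 0 and Pcdha7 0 against 2, both too few to read. Cntn2 and Pcdh17, the higher genes above, were each detected in 15 of the 16 cells.

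Among the noradrenergic identities, Tenm2 and Pcdh7 were the members with the smallest adjusted p-values. The largest log2 fold changes of called members were those of Cntn4 and Cntn6, in Noradrenergic4. Each noradrenergic identity was compared with the other 4, so the 5 comparisons share libraries and their values are given side by side. Noradrenergic2 and Noradrenergic3 had 7 called members each, all higher, beside 1.64% and 1.74% of all genes tested in either direction and 1.36% and 1.46% higher. Noradrenergic4 had 6, all higher (1.25% of all genes, 0.952% higher). Noradrenergic5 had 2 higher (0.788%) and 4 lower (0.623%), 1.41% together, and Noradrenergic1 had 2 higher (0.865%) and 3 lower (0.528%), 1.39% together. No member was called lower in Noradrenergic2 (0.277% of all genes), Noradrenergic3 (0.277%) or Noradrenergic4 (0.303%). Median log2 fold changes of members were 0.23, 0.33, 0.34, -0.07 and -0.47 in that order, against 0.09, 0.16, 0.03, -0.03 and -0.15 over all genes.

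Tenm2 (mm10 chromosome 11, 36006656 to 37235964, minus strand) encodes a teneurin that binds latrophilins across the synapse. In Noradrenergic2 its level was 2.26 at the lowest, 3.73 at the median and 4.92 at the highest collection, and in Noradrenergic3 it was 2.84, 3.32 and 4.24. No collection of another identity reached 2: the highest were 1.67 in Ach1, 1.44 in Noradrenergic4, 1.17 in Glutamatergic, 1.14 in Ach2, 1.1 in Noradrenergic1 and 0.785 in Noradrenergic5. The order of mean levels was Noradrenergic2 (3.62 ± 0.95), Noradrenergic3 (3.37 ± 0.47), Noradrenergic4 (0.829 ± 0.494), Noradrenergic1 (0.577 ± 0.534), Glutamatergic (0.555 ± 0.590), Noradrenergic5 (0.514 ± 0.345), Ach2 (0.430 ± 0.545) and Ach1 (0.392 ± 0.627). Only the step between Noradrenergic3 and Noradrenergic4 exceeded the spread of neighbours. It was detected in 39 of 39 Noradrenergic2 cells, all but 1 Noradrenergic3 cell and 14 of 23 Noradrenergic5 cells. The log2 fold changes against the other noradrenergic identities were 1.92 ± 0.22 for Noradrenergic2 (edgeR adjusted p = 2.3e-15) and 1.92 ± 0.20 for Noradrenergic3 (2.01e-18). Those of Noradrenergic1 (-1.54 ± 0.41, edgeR adjusted p = 0.0168) and Noradrenergic5 (-1.50 ± 0.32, 0.000719) were negative.

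Pcdh7 (chromosome 5, 57717967 to 58133230, plus strand), a delta-1 protocadherin, followed a graded order. Its mean level was 2.86 ± 0.41 in Noradrenergic2, 2.49 ± 0.42 in Noradrenergic3, 1.60 ± 0.63 in Noradrenergic1, 0.791 ± 0.410 in Noradrenergic4 and 0.195 ± 0.388 in Noradrenergic5. In Noradrenergic5 the 6 collections read 0, 0, 0, 0.0374, 0.154 and 0.978, and in Noradrenergic2 none was under 2.35. The gene was counted in 3 of 23 Noradrenergic5 cells against 164 of 170 other noradrenergic cells. Log2 fold changes were 2.11 ± 0.23 for Noradrenergic2 (edgeR adjusted p = 6.18e-17), 1.83 ± 0.21 for Noradrenergic3 (6.24e-15) and -4.14 ± 0.45 for Noradrenergic5 (2.37e-16). Tenm2 and Pcdh7 were counted in the same cell in all 39 Noradrenergic2 cells, but in 9 of 18 Noradrenergic4 and 3 of 23 Noradrenergic5 cells.

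Pcdh10, a delta-2 protocadherin known from axon extension, was also lowest in Noradrenergic5. The level there was 0 to 0.392 over 6 collections, against 1.39 to 2.66 in Noradrenergic1, 0.855 to 1.93 in Noradrenergic2 and 0.855 to 1.73 in Noradrenergic3, with no overlap. Its level in Noradrenergic4, 0.353 to 1.41, overlapped that of Noradrenergic5. The log2 fold change in Noradrenergic5 was -2.21 ± 0.36 (edgeR adjusted p = 4.34e-07), and Pcdh10 was higher in Noradrenergic1 (1.31 ± 0.31, edgeR adjusted p = 0.00368), Noradrenergic2 (1.04 ± 0.22, 0.000569) and Noradrenergic3 (0.91 ± 0.20, 0.00127). Of 23 Noradrenergic5 cells, 10 had no count of Pcdh7 or Pcdh10 and 1 had both, while both were counted in 10 of 10 Noradrenergic1 and 39 of 39 Noradrenergic2 cells.

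Pcdh9, another delta-1 protocadherin, had its highest mean level in Noradrenergic3, where collections read 1.72, 3.39 and 3.77 (lowest, median, highest). Collections of Noradrenergic4 ran from 0.556 to 4.71, so the 2 identities overlapped. The level was 1.87 ± 0.44 in Noradrenergic2, 2.08 ± 1.59 in Noradrenergic4, 0.566 ± 0.398 in Noradrenergic1 and 0.660 ± 0.244 in Noradrenergic5. It was higher in Noradrenergic3 by a log2 fold change of 1.62 ± 0.19 (edgeR adjusted p = 1.27e-14) and lower in Noradrenergic5 (-1.56 ± 0.32, 0.000208). The call in Noradrenergic2 (0.75 ± 0.22, edgeR adjusted p = 0.0484) ended in 9 of 12 alternatives, with adjusted p from 0.000648 to 0.679, and the pooled level there, 1.88, was below the 2.53 of the other 4 together.

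**Figure D3:**
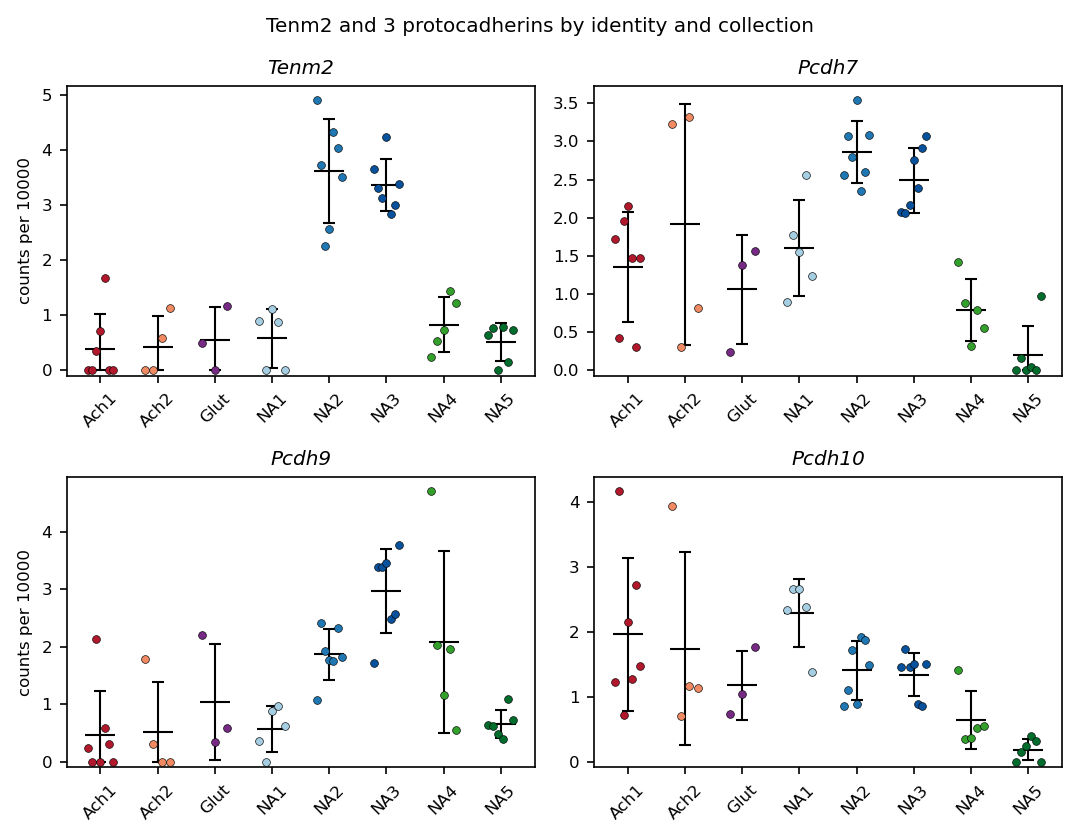
Counts per 10000 of Tenm2, Pcdh7, Pcdh9 and Pcdh10 by identity (NA, Noradrenergic; Glut, Glutamatergic). A point is a collection, a bar the mean with its SD, drawn no lower than 0: Tenm2 separates NA2 and NA3 from the other 6 identities, and Pcdh7 and Pcdh10 are lowest in NA5.

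Further members were called higher in Noradrenergic2 or in Noradrenergic3. Cdh6, a type II cadherin, was at 0.641 ± 0.346 in Noradrenergic2 and 0.452 ± 0.141 in Noradrenergic3, against 0.0485 to 0.245 in the other noradrenergic identities, and was called in Noradrenergic2 (2.14 ± 0.35, edgeR adjusted p = 7.03e-07). It was counted in 35 of 39 Noradrenergic2 cells. Cntn2 (1.79 ± 0.41, edgeR adjusted p = 0.00156) and Lrrtm2 (2.48 ± 0.69, edgeR adjusted p = 0.023) were higher in Noradrenergic2 as well, at levels of 0.390 ± 0.364 and 0.237 ± 0.174. Lrrtm4, which binds neurexins and heparan sulphate proteoglycans, was at 0.435 ± 0.142 in Noradrenergic3 (0.171 to 0.618). It was detected in 75.7% of Noradrenergic3 cells, against 1 of 23 in Noradrenergic5. Noradrenergic1 was close to Noradrenergic3, with Lrrtm4 at 0.323 ± 0.224 and detected in 8 of 10 cells. It was higher in Noradrenergic3 (2.21 ± 0.35, edgeR adjusted p = 1.8e-07), as were Tenm3 (1.55 ± 0.32, edgeR adjusted p = 0.00026) and Cntn1 (0.74 ± 0.18, edgeR adjusted p = 0.00567). The calls of Cntn1 and Tenm3 ended with cells thinned to 15000 counts and within either chip lot, whereas those of Tenm2, Pcdh7 and Cdh6 in Noradrenergic2 and of Tenm2, Pcdh7 and Pcdh9 in Noradrenergic3 stood in every alternative. Of the genes that mark other cells, 2 of 6 fibroblast, 2 of 3 smooth muscle and 1 of 3 endothelial genes tested were also called higher in Noradrenergic3. Their summed levels per cell had medians of 0, 0.213 and 0.507 there and reached 99.8, 15.3 and 19.3 in single cells, with all genes of the 3 lists counted, and their part in the results was not tested.

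Compared with the other noradrenergic identities, 2 contactins were called higher in Noradrenergic4. Cntn6 was counted in 11 of 18 Noradrenergic4 cells and 7 of 175 other noradrenergic cells, and in 6 of 18 Noradrenergic4 cells after thinning. Its Noradrenergic4 levels were 0.0556, 0.261, 0.264, 0.603 and 0.707, and other noradrenergic libraries read 0 apart from 4 with 0.0165 to 0.156. The log2 fold change was 5.25 ± 0.73 (edgeR adjusted p = 7.35e-10), higher in 5 of 5 collections. Cntn4 was counted in 6 of 18 against 8 of 175 cells. Its Noradrenergic4 levels were 3.77 (day 11 female), 0.844 (day 31 female), 0.176, 0.111 and 0, so the collections differed widely. The first was a single cell with 16 of the 41 counts. The log2 fold change was 5.34 ± 0.60 (edgeR adjusted p = 2.97e-15). Cholinergic cells held Cntn4 too, at 0.839 ± 1.19 in Ach1 (5 of 8 cells) and 0.653 ± 0.761 in Ach2 (6 of 8). Cntn4 and Cntn6 were counted in the same cell in 5 of 18 Noradrenergic4 cells among 5 noradrenergic cells in all. Tenm4 was also higher, at 1.99 ± 0.89 (1.29 to 3.53), with a log2 fold change of 1.81 ± 0.29 (edgeR adjusted p = 3.82e-07).

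Lrrn3, a leucine-rich repeat protein of neurons, and Cdh8, a type II cadherin, were higher in both Noradrenergic4 and Noradrenergic5. Lrrn3 was at 1.13 ± 0.73 and 1.21 ± 0.57 in these, against 0.181 to 0.343 in the other 3 by mean. Its log2 fold changes were 1.18 ± 0.31 (edgeR adjusted p = 0.0175) and 1.31 ± 0.31 (0.003), and it was higher in 5 of 5 and 6 of 6 collections. Cdh8 was counted in 6 of 18 and 9 of 23 cells of these identities, against 1 of 10 Noradrenergic1, 1 of 39 Noradrenergic2 and 4.85% of Noradrenergic3 cells. Its log2 fold changes were 2.46 ± 0.64 (edgeR adjusted p = 0.0149) and 2.42 ± 0.62 (0.0111). Pcdh17 was called in Noradrenergic4 too (1.45 ± 0.40, edgeR adjusted p = 0.0288), a call that stood in 2 of 12 alternatives with adjusted p up to 0.67. With the stress covariate the Noradrenergic4 calls of Lrrn3 (edgeR adjusted p = 0.104) and Cdh8 (edgeR adjusted p = 0.408) ended. Cntn4 in Noradrenergic4 lost its call with DESeq2 and in chip lot 1772116, and without day 31 females the calls of Pcdh9, Tenm2 and Lrrn3 in Noradrenergic5 ended. In Noradrenergic5, 4 of 6 fibroblast genes tested were called higher as well. Their summed level had a median of 0.203 (0 to 21.8) with all 7 genes of the list counted, against a median of 0 over all noradrenergic cells, and its part in the results was not tested.

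Noradrenergic1, with 10 cells, stood out for Cntn5 and Tenm4. Cntn5 levels were 0 (day 30 female), 1.24 (day 31 female), 2.69 (day 29 male), 4.62 (day 38 male) and 6.41 (day 30 male), against a highest value of 1.76 in the other noradrenergic libraries. The gene was counted in 7 of 10 against 50 of 183 cells, and its log2 fold change was 3.54 ± 0.82 (edgeR adjusted p = 0.0213). Tenm4 was at 0 to 0.442, below every library of Noradrenergic2 (0.633 to 1.08), Noradrenergic4 (1.29 to 3.53) and Noradrenergic5 (0.781 to 1.69). That range overlapped Noradrenergic3 (0.221 to 1.26). Tenm4 was lower by a log2 fold change of -3.96 ± 0.60 (edgeR adjusted p = 1.86e-08). Cntn1 was lower as well (-1.30 ± 0.34, edgeR adjusted p = 0.0145). The stress genes had a median summed level of 15.5 there, and with it as a covariate the calls of Cntn1 (edgeR adjusted p = 0.0957) and Tenm2 (edgeR adjusted p = 0.132) ended. The call of Cntn5 ended with DESeq2 and without the day 31, day 33 or day 38 collections, and that of Tenm4 ended in chip lot 1772099 alone. The counts of called members fell from 5 to 2 without day 38 males and to 3 without day 31 females.

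**Figure D4:**
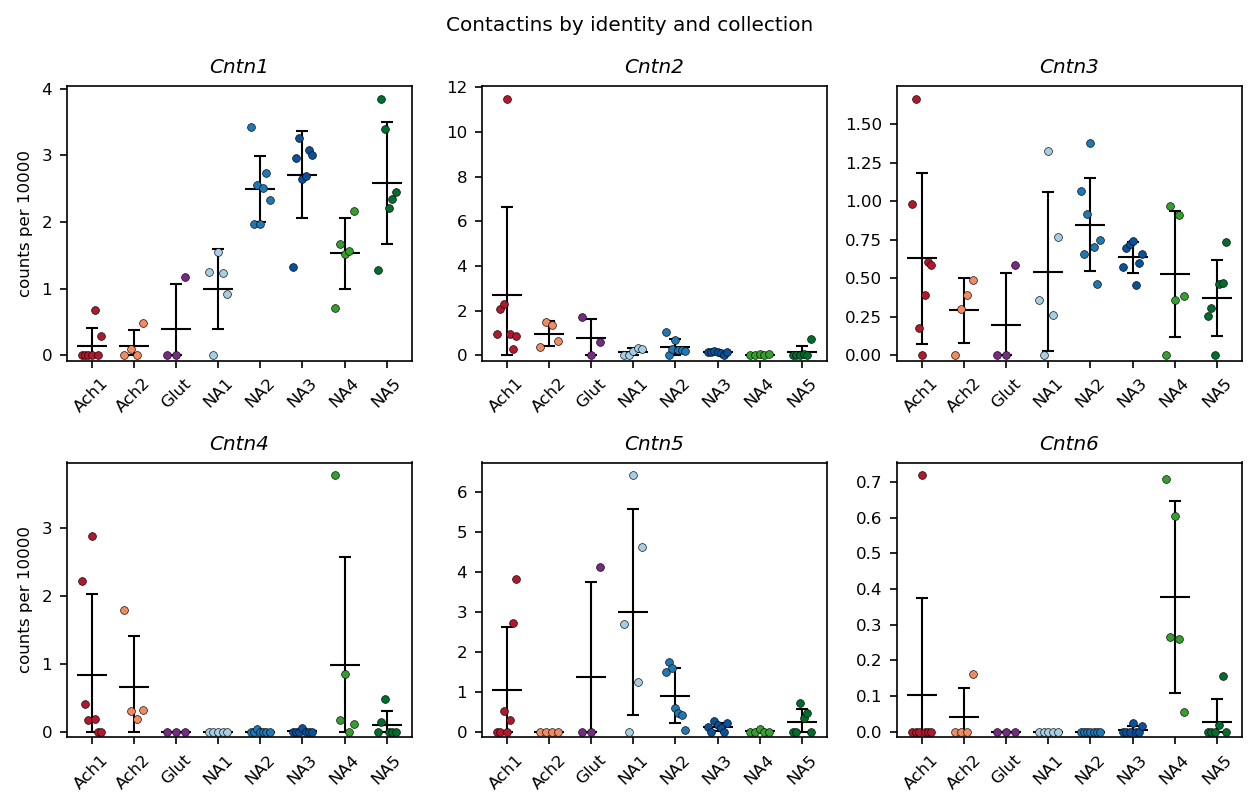
Counts per 10000 of the 6 contactins by identity, with a point per collection and the mean with its SD, drawn no lower than 0. Cntn1 is low in Ach1, Ach2 and Glut. The means of Cntn2 are higher in Ach1 and Ach2 than in any NA identity, and its highest Ach1 point is a single cell. Cntn6 rises in NA4, Cntn4 in NA4, Ach1 and Ach2, and Cntn5 is highest in NA1. The panel of Cntn3 shows a member that was not called (edgeR adjusted p = 0.0633).

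Nrxn2, a presynaptic neurexin, had mean levels of 1.02 to 1.82 (edgeR adjusted p = 0.993). Nrxn3, another neurexin, was called, but the call stood in 4 of 12 alternatives and in 4 of 10 fits without a collection. Nlgn2, the neuroligin of inhibitory synapses, had mean levels of 0.419 to 1.26 (edgeR adjusted p = 0.616), and Nlgn3 of 0 to 0.255 (edgeR adjusted p = 0.696). A p that misses the threshold does not show equal levels.

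Cdh2, the N-cadherin of neural tissue, was counted in 7 of 8 Ach1, 8 of 10 Noradrenergic1 and 92.2% of Noradrenergic3 cells, with mean levels of 0.657 to 1.62, and was not called (edgeR adjusted p = 0.896). Cdh19, a cadherin of Schwann cells and satellite glia, ran from 0.0313 in Noradrenergic2 to 0.28 in Ach2 (edgeR adjusted p = 0.44). Cdh5, the cadherin of endothelial cells, had counts in 3 Noradrenergic3, 1 Noradrenergic4 and 3 Unclassified cells. Cntnap2 had mean levels of 0.491 to 1.34, and Cntnap1 of 0 to 0.197 (edgeR adjusted p = 0.563).

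The clustered protocadherins, whose genes lie in tandem arrays on chromosome 18 and of which a neuron transcribes a few, were the most numerous members. Of the 2799 counts of the 12 Pcdha members, 80.1% lay on the Pcdha5 entry, which was counted in 292 of 298 cells. The next widest of these members, Pcdha12, was counted in 63. The near names Pcdhac1, Pcdhac2 and Pcdha4-g were kept apart and are not in this share. Of them, Pcdhac2 was counted in more cells than Pcdha12. All Pcdha transcripts share their last exons, and how reads in them were assigned is not given in the sources used here, so the Pcdha5 entry is not read as a choice of that gene. The 22 Pcdhb genes, which have no shared exons, held 1118 counts, from 3 to 211 a gene.

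Leaving Pcdha5 out, a cell held a count of 3 of the 33 other Pcdha and Pcdhb genes at the median (0 to 10). By identity the median ran from 2.5 in Noradrenergic1 to 4 in Ach2 and Noradrenergic2 to Noradrenergic5, and it was 2 in Unclassified cells, which were the shallowest (median 22977 counts). With each cell thinned to 15000 counts the median was 2 (0 to 9), and 1 to 2.5 by identity. At this depth an unseen gene may be an uncounted one, so these numbers are a lower limit on the genes a cell used. Beside 10.4% of all genes, 1 of the 15 tested Pcdhb and 0 of the 10 tested Pcdha genes were called across identities. That gene was Pcdhb7, with levels of 0.522 ± 0.797 in Ach1 and 0.409 ± 0.690 in Ach2 against 0 to 0.141 in the noradrenergic identities (edgeR adjusted p = 0.0223), a call that stood in 3 of 11 alternatives.

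**Figure D5:**
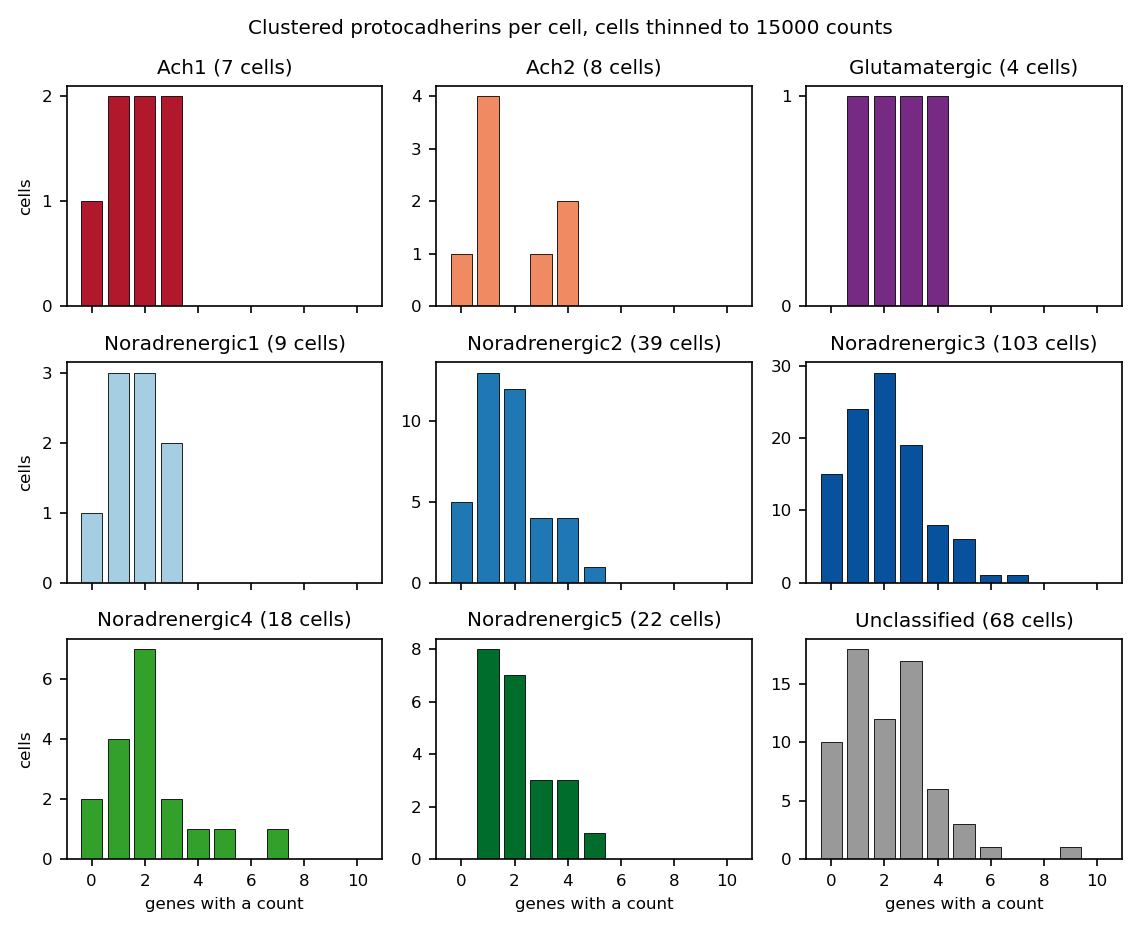
Number of cells (vertical axis) by how many of the 33 Pcdha and Pcdhb genes other than Pcdha5 had a count (horizontal axis), after thinning each cell to 15000 counts. The panels are the 8 identities and the Unclassified cells. Most cells of each lie between 0 and 4 genes, and the highest, an Unclassified cell, at 9.

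The genes that work with these families were read from lists that the rule did not include. Of 21 tested partners of neurexins, teneurins and other synaptic organizers, 10 were called across identities, beside 10.4% of all genes tested, as were 12 of 21 immunoglobulin adhesion genes and contactin partners, 3 of 18 scaffolds, 2 of 4 large cadherins, 1 of 10 cadherin-bound catenins and 0 of 4 gamma protocadherins and near names (0 at an unadjusted p under 0.05). In cholinergic cells, beside 4.57% of all genes tested, 4 organizer partners were called, Igsf21 (3.04 ± 0.54, edgeR adjusted p = 1.57e-06) and Slitrk5 (1.99 ± 0.45, 0.000416) higher and Clstn1 and Lphn3 lower, the last 2 of which ended with the stress covariate (edgeR adjusted p = 0.0785 and 0.0559). Among immunoglobulin genes 2 were higher and 5 lower there. Cadm1, a synaptic immunoglobulin protein, was at 1.72 ± 0.67 in Ach1 and 1.42 ± 0.51 in Ach2, against 3.54 ± 0.12 to 8.02 ± 1.23 in the noradrenergic identities (-1.97 ± 0.24, edgeR adjusted p = 2.95e-14).

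In Glutamatergic cells Flrt3, a ligand of latrophilins, was at 1.21 ± 0.88 and counted in 4 of 4 cells, against 45 of 193 noradrenergic cells (3.64 ± 0.70, edgeR adjusted p = 3.21e-05, and 0.095 with the stress covariate), and Mcam was lower (-2.04 ± 0.43, edgeR adjusted p = 0.000329). Thy1, a lipid-anchored glycoprotein of neurons, was lower in Noradrenergic2 (0.374 ± 0.355, log2 fold change -2.73 ± 0.35, edgeR adjusted p = 3.67e-08) and higher in Noradrenergic4 (6.11 ± 3.34, 1.68 ± 0.28, edgeR adjusted p = 5.09e-05). Alcam, which binds its own kind, was higher in Noradrenergic4 (1.32 ± 0.21, edgeR adjusted p = 5.02e-07). Ptprg, a receptor phosphatase that binds contactins, was counted in 17 of 23 Noradrenergic5 cells at 0.490 ± 0.389 (2.98 ± 0.47, edgeR adjusted p = 2.68e-07), and its level was also higher in cholinergic cells (2.02 ± 0.44, edgeR adjusted p = 0.000269). Slitrk5 was called higher in Noradrenergic1 (2.91 ± 0.56, edgeR adjusted p = 4.89e-05) and lower in Noradrenergic2 (-2.50 ± 0.64, edgeR adjusted p = 0.00886). In Noradrenergic3 Flrt1 (1.20 ± 0.25, edgeR adjusted p = 0.000294) and Cadm1 (0.88 ± 0.18, 0.00032) were higher.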

How the data were processed

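Polyadenylated RNA was measured in 298 single cells of the thoracic ganglion. The deposited table, made by the authors, holds whole-number counts per gene and cell, up to 1888; whether they are molecules or reads, and whether strand was used, is not given in the sources used here. The build named in the submitters' processing notes is mm10. The aligner, counter and annotation are not given in the sources used here.

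Cells were grouped by the labelled identity, and counts were summed per identity and collection (sex and age), since the labels name no animals; 16 of 44 libraries were a single cell. A gene was tested if its counts summed to 20 or more and 3 or more libraries held it (11555 genes). After TMM scaling they were fitted by edgeR 4.0.16 (robust quasi-likelihood, R 4.3.3), with terms for identity and collection. Tests were two-sided with Benjamini-Hochberg adjustment, and a SE is the absolute log2 fold change divided by the square root of F. The block rests on a check of the pairing in libraries of at least 5 cells. Deviations from the mean of the identity had correlations between 0.192 and 0.241 for the 4 pairs sharing a collection. The 20 other pairs averaged -0.0451. Centring on the identity mean largely fixes that average once the 4 pairs are known, so it is no separate baseline. Every pair set Noradrenergic2 against Noradrenergic3, so the pairing was not checked in the other identities. No 2 columns were identical (0 found). The 24 chips came from 2 lots.

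Alternatives were RLE scaling, DESeq2 1.42.0, limma 3.58.1 voom, 2 other filters, no block, the chip as block, libraries of 2 or more cells, thinning to 15000 counts, the summed glial level as covariate, each chip lot alone, and each collection left out. Chosen after seeing the data were the summed stress level as covariate, and leaving out cholinergic and Glutamatergic cells with 10 or more Th counts. The fit was tested on simulated data for the cholinergic comparison alone. These had changes in genes of higher counts only, the same spread for every gene and no collection effect. That test does not cover members of few counts. The members and lists were chosen with earlier results of these data known. Every member past an adjusted p of 0.05 is named. The values of 1 member are not reported here. Other lists are named by their called genes, the 4 with the largest fold where over 4 passed. Promoter windows are RefSeq's (GRCm38.p6), 250 bases before the start, read where the start equals that of the GENCODE gene model.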

Additional observations from a re-analysis of the deposited data

Results flagged for a closer look

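Levels of called members were screened for a collection far from the others, which flags about 1 in 20 by chance in normal data. These low counts, with values at 0, need not follow that rate. Among 51 levels over 4 to 7 collections, 11 were flagged. In Ach1 they were Cntn2 at 11.5 in the day 30 male cell (next 2.31), Pcdh9 at 2.13 in day 30 females (next 0.589), and Cntn1 at 0.688 (next 0.294) and Tenm2 at 1.67 (next 0.718) in day 31 females, where 1 cell with 0 Chat and 61 Th counts held 7 Cntn1 and 17 Tenm2 counts. In Ach2 both Cntn4 and Pcdh9 stood at 1.79 in the day 16 collection (next 0.325 and 0.302), a single cell of 27905 counts. In Noradrenergic1 Pcdh10 was lowest at 1.39 in day 38 males (next 2.33), and in Noradrenergic3 Cntn1 was lowest at 1.32 in day 11 females (next 2.64). In Noradrenergic4 Cntn4 reached 3.77 in day 11 females (next 0.844) and Tenm4 3.53 in day 30 females (next 1.88). In Noradrenergic5 Pcdh7 was at 0.978 in day 34 females (next 0.154).

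The 85 Unclassified cells, used in no comparison, held 6 members with more than 3 counts at a pooled level above each named identity: Cdh5 at 0.0717 (next 0.0302), Cdhr3 at 0.0409 (0.0312), Pcdh1 at 0.0461 (0.0344), Pcdh8 at 0.0512 (0.0454), Pcdha10 at 0.0461 (0.0364) and Pcdhb6 at 0.0205 (0.0121). None of these differences was tested.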

How the results depend on the processing

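Of 45 member calls in the 8 comparisons, 12 stood in all alternatives in which they could be tested and without each collection, as did 12 of the 23 calls across identities. Some alternatives tested fewer members: edgeR's filterByExpr left 18 of the 63 members, thinning 37, and the 2 lots 42 and 45. Counts of called members that moved were, across identities (23), 12 with filterByExpr, 13 with thinning, 13 in lot 1772116 and 14 in lot 1772099. For cholinergic cells (10) they were 6 with filterByExpr, 6 with libraries of 2 or more cells and 2 in lot 1772099. For Glutamatergic cells (4) they were 2 with thinning, 2 in lot 1772116 and 1 in lot 1772099. For Noradrenergic1 (5) they were 3 with DESeq2, 2 with thinning, 1 in lot 1772116 and 2 in lot 1772099. For Noradrenergic2 (7) they were 4 with filterByExpr, 3 with thinning, 3 in lot 1772116 and 4 in lot 1772099. For Noradrenergic3 (7) they were 11 with the chip as block, and 4 in either lot. For Noradrenergic4 (6) they were 2 with DESeq2, 3 with voom, 2 with filterByExpr, 2 with thinning, 1 in lot 1772116 and 2 in lot 1772099. For Noradrenergic5 (6) they were 3 with DESeq2, 3 with filterByExpr and 2 in lot 1772116. A further pair of settings was chosen after seeing the data. With the stress level as covariate the counts that moved were 2 for Glutamatergic cells and 3 for Noradrenergic1, and without the cholinergic and Glutamatergic cells of 10 or more Th counts 2 for Glutamatergic cells. Of the 45 calls 38 and 40 stood under them. Why calls ended was not tested.

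With no replicate block the counts were 21, 11, 4, 0, 4, 7, 7, 5 and 5, in the order all identities, cholinergic, Glutamatergic, Ach1 against Ach2, and Noradrenergic1 to Noradrenergic5. Leaving out 1 collection at a time gave 17 to 23, 8 to 11, 1 to 5, 0 to 0, 2 to 7, 5 to 7, 7 to 9, 2 to 6 and 2 to 7 in the same order. The collections that moved a count by over 1.5 times were day 29 males (1), day 31 females (2) and day 33 females (2) for Glutamatergic cells, day 31 females (3) and day 38 males (2) for Noradrenergic1, day 31 females (2) and day 38 males (3) for Noradrenergic4, and day 31 females (2) for Noradrenergic5. Lrrtm1 in cholinergic cells reversed to a log2 fold change of -0.97 with libraries of 2 or more cells, and Lin7a, a scaffold protein, to -0.36 in lot 1772099. The median number of clustered protocadherins per cell moved from 3 to 2 with thinning. Of 504 levels, 484 under thinning and 501 as means over cells lay within 1 SD of those given.

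Further member calls ended without a single collection, with edgeR adjusted p given in brackets. In cholinergic cells Lrrtm1 ended without day 29 males (0.18), day 33 females (0.0869) or day 38 males (0.057), Cdh11 without the day 16 collection (0.0704), day 29 males (0.3), day 31 females (0.193) or day 38 males (0.138), and Tenm2 without day 29 males (0.096). In Noradrenergic1 Pcdh10 ended without day 31 females (0.0672), Tenm2 without day 38 males (0.53), and Cntn1 without day 29 males (0.12), day 30 females (0.0633) or day 38 males (0.227). In Noradrenergic2 Lrrtm2 ended without day 29 males (0.056), day 30 females (0.211) or day 31 females (0.283), and Pcdh9 without day 29 or 38 males or day 30, 31 or 33 females (0.055 to 0.325). In Noradrenergic3 Cntn1 ended without day 38 males (0.0517). In Noradrenergic4 Cdh8 ended without day 11 females (0.127) or day 38 males (0.117), Lrrn3 without day 31 females (0.152) or day 38 males (0.364), and Pcdh17 without day 11, 31 or 33 females or day 38 males (0.0634 to 0.144). In Noradrenergic5 Cdh8 ended without day 33 females (0.366).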
